A study of Mus musculus with 12 samples.

Results

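Loss of the NF-kB subunit p50 was examined in mouse macrophages treated with lipopolysaccharide (LPS), the cell wall component of bacteria that activates Toll-like receptor 4. The comparison took the 2 arrays of LPS-treated p50-/-IL10-/- cells minus the 2 arrays of LPS-treated IL10-/- cells, chosen by their labels, out of 12 arrays in all. It ran over 12393 genes, each represented by its brightest probe set on average across the 12 arrays. Macrophages were grown from bone marrow for 5 days in 30% medium conditioned by L cells, a source of macrophage growth factor, with 10% serum. LPS was given at 1 ng/ml, and RNA was taken 4 h later. Both groups carried a knockout of Il10 and shared the strain 129-SvEv-Tac, and the p50-/-IL10-/- group also lacked p50. The other 8 arrays held both genotypes without stimulus and with 1 ng/ml LPS and 0.3 ng/ml IL-10, with 2 arrays in each of the 6 groups. The labels call the arrays of a group biological replicates. P-values and SEs rest on the spread between arrays of a group, pooled for each gene over all 6 groups and drawn towards that of other genes. Below, the LPS arrays of IL10-/- cells are called control arrays 1 and 2, and those of p50-/-IL10-/- cells deficient arrays 1 and 2.

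The gene Nfkb1 encodes the protein p105, which is processed to p50. p50 forms dimers with RelA or c-Rel that activate transcription, and dimers with itself that lack an activation domain and can occupy NF-kB sites. Unprocessed p105 also holds and stabilises the kinase TPL-2 (Map3k8), which carries LPS signals to the ERK MAP kinases. The knockout removes both products, so the loss of p50 and of p105 cannot be told apart here, and "without p50" below stands for the loss of both. IL-10 is a cytokine that restrains inflammatory genes in macrophages through STAT3.

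Transcripts of Nfkb1 were not analysed here, so the p50 genotype rests on the labels. The probe set of Il10 read 7.71 and 7.55 on the log2 scale in IL10-/- cells with LPS and 9.11 and 8.86 without p50, so the groups did not overlap. The difference was 1.35 ± 0.16 log2 (SE, n = 2 arrays per group, as for all differences below; adjusted p = 0.000464, limma with Benjamini-Hochberg adjustment). Whether these probes lie inside the deleted part of Il10 is unknown, so the signal does not check the knockout. All 14 measured macrophage markers read above 5.61, the highest lower quartile of the arrays, below which values are called dim here and the size of a difference is uncertain. Among them Cd14, the LPS co-receptor, stood at 13.29 and 13.28 in IL10-/- cells and at 13.23 and 13.16 without p50, and lysozyme Lyz2 at 14.03 and 14.08 against 14.03 and 14.11. Passing the dim level does not set macrophages apart, since 0 of 12 neutrophil markers were dim on all 4 arrays. The mean of the macrophage markers was at least 12.24 on each array, and that of the neutrophil markers at most 8.40. High macrophage markers thus go with the label but do not measure purity. Values of the 2 arrays of a group correlated at 0.992 over all genes in IL10-/- cells and at 0.996 without p50.

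Without p50, 1535 of the 12393 genes were called at an adjusted p under 0.05 (12.4%), 702 higher (5.66%) and 833 lower (6.72%). At least 2-fold changes made up 114 of the higher genes (0.92%) and 105 of the lower ones (0.847%). The median difference over all genes was -0.02 log2, which says nothing of direction, since RMA equalises the arrays before any comparison. Centring each array on its median gave 799 higher and 725 lower. The number of calls depended on single arrays: it was 877 on leaving out control array 2 (470 higher and 407 lower) and 671 on leaving out deficient array 1 (316 and 355). Lower genes numbered 480 on leaving out deficient array 2. The plot of differences against level shows the called genes at all levels, with a few far outside the rest.

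**Figure D1:**
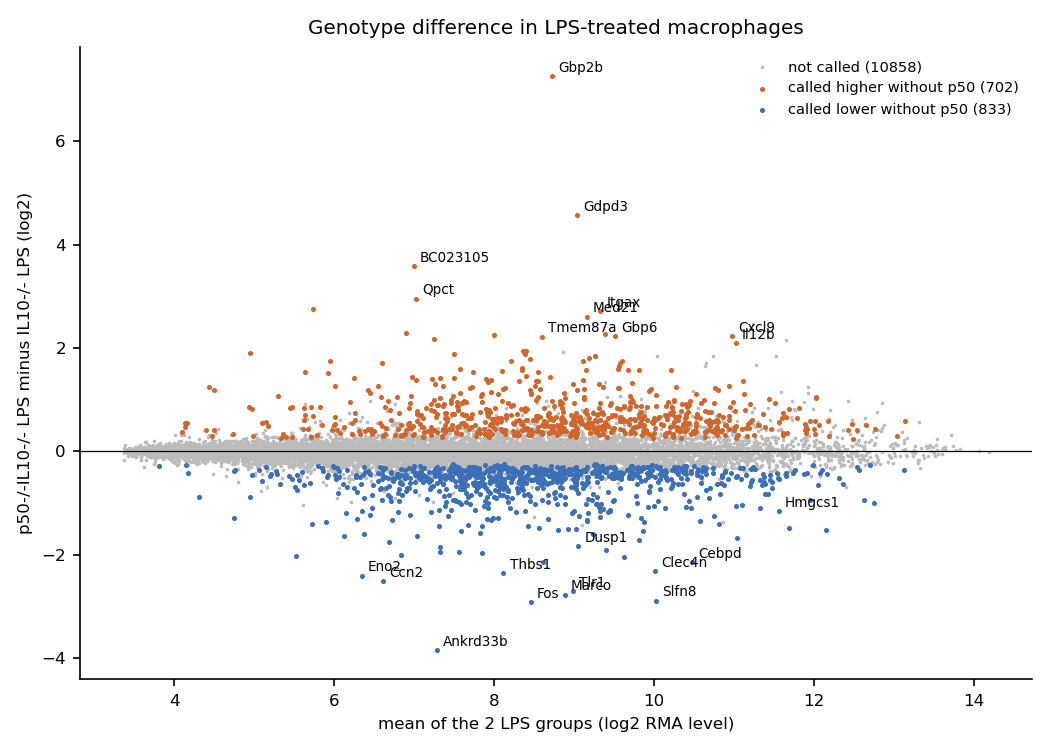
Difference between the genotypes with LPS (p50-/-IL10-/- minus IL10-/-, log2, vertical axis) against the mean of both LPS groups (log2 RMA level, horizontal axis) for 12393 genes. Orange points are the 702 genes called higher, blue points the 833 called lower and grey points the genes not called; Gbp2b stands highest at 7.27 and Ankrd33b lowest at -3.85.

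The interferon-inducible GTPase gene Gbp2b stood apart from all other genes. It read 5.03 and 5.15 in IL10-/- cells with LPS, which is dim, and 12.54 and 12.17 without p50, a difference of 7.27 ± 0.21 (adjusted p = 5.12e-08) whose size is uncertain because of the dim control level. It was also higher without stimulus, by 5.34 log2 (adjusted p = 6.8e-07). Gbp2b is a genomic neighbour of Nfkb1, the 24th of the 25 measured genes on one side of it. Among the 50 measured genes nearest to Nfkb1, 25 on each side, 8 were called (16%, against 12.4% of all genes), 7 higher and 1 lower. The guanylate-binding protein genes Gbp7 and Gbp3, the 22nd and 23rd on that side, were higher by 1.01 ± 0.14 and 1.04 ± 0.23. Nearer to Nfkb1, the zinc and manganese transporter Slc39a8 was higher by 0.71 ± 0.15 and the Integrator subunit Ints12 by 0.87 ± 0.10, while Rap1gds1, a regulator of small GTPases, was lower (-0.36 ± 0.09). The other called neighbours were the kinesin gene Cenpe (0.82 ± 0.17) and the calcineurin subunit Ppp3ca (0.32 ± 0.08). The other probe sets of Ppp3ca gave 0.07 and -0.05 log2 and that of Slc39a8 0.42, none of them called. Of these 8 calls, those of Gbp3, Slc39a8, Cenpe, Ppp3ca and Rap1gds1 ended in at least 1 fit with an array left out. Gbp2b, Gbp3 and Gbp7 were also called higher both without stimulus and with LPS and IL-10. Ints12 was called higher with LPS and IL-10 but not without stimulus. Slc39a8, Cenpe, Ppp3ca and Rap1gds1 were called in neither. DNA around a targeted gene can stay that of the strain in which the targeting was done, and the part of this in the 8 calls was not tested.

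The next largest increases were in genes of varied function. The phosphodiesterase-family gene Gdpd3 read 6.65 and 6.85 in IL10-/- cells and 11.73 and 10.93 without p50, a 23.8-fold difference (4.58 ± 0.34 log2, adjusted p = 2.91e-05). BC023105, a transcript without a named function here, was dim at 5.55 and 4.86 and read 9.17 and 8.41 without p50 (3.59 ± 0.35). Qpct, the enzyme that cyclises N-terminal glutamine of peptides such as chemokines, went from 5.47 and 5.63 to 8.42 and 8.59 (2.96 ± 0.20). Groups did not overlap for any of these genes, but the rule that picked the 20 largest increases and decreases required this. Over all genes, 21.6% did not overlap in the higher and 26.9% in the lower direction. Med21, a subunit of the Mediator complex, read 7.61 and 8.10 against 10.63 and 10.29 (2.61 ± 0.17). Differences of Gdpd3 and Qpct were also called without stimulus (4.22 and 2.60 log2), whereas Med21 and BC023105 gave 0.25 and 0.22 log2 there and were not called. The transcription factor Lhx2 (2.28 ± 0.42), the branched-chain amino acid enzyme Bckdhb (2.25 ± 0.15), the membrane protein Tmem87a (2.22 ± 0.11), the pyrimidine catabolism enzyme Dpys (2.18 ± 0.20) and the RNA helicase Ddx4 (1.90 ± 0.29, dim in IL10-/- cells) completed this set. The call of Lhx2 ended on leaving out deficient array 1 (adjusted p = 0.0599), and the other probe sets of Dpys gave 0.04 and 0.21 log2 and were not called.

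The largest decrease was that of Ankrd33b, an ankyrin repeat gene, from 9.12 and 9.31 in IL10-/- cells to a dim 5.24 and 5.49 without p50 (-3.85 ± 0.14, adjusted p = 2.92e-07). Slfn8, of the interferon-inducible Schlafen family, read 11.65 and 11.29 against 8.50 and 8.66 (-2.89 ± 0.41), so that 13.5% of the control level remained. It ran opposite to most other interferon-inducible genes measured. The torsin-family ATPase Tor4a (-2.15 ± 0.14), the lipid enzyme Gdpd1 (-2.04 ± 0.18), the chromosomal passenger protein Incenp (-1.97 ± 0.14) and the semaphorin Sema4a (-1.92 ± 0.25) were lower as well. Another probe set of Gdpd1 gave -0.31 log2 and was not called. Of the 20 largest decreases, 13 were also called lower without stimulus and 20 with LPS and IL-10, and of the 20 largest increases 9 and 19 were called higher there. These other comparisons share no array with the one described, but they share its pooled estimate of spread.

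Inflammatory cytokines changed in both directions. Of 26 measured members, 10 were higher and 3 lower without p50 (50% called, against 12.4% of all genes, 5.66% higher and 6.72% lower), with a median of 0.11 log2 against -0.02 for all genes. Il12b, the shared subunit of IL-12 and IL-23, read 10.07 and 9.87 in IL10-/- cells and 12.25 and 11.88 without p50, 4.28-fold higher (2.10 ± 0.21 log2, adjusted p = 0.000197). Il1a, which encodes interleukin 1 alpha, read 8.54 and 7.94 against 9.93 and 10.04 (1.75 ± 0.19, adjusted p = 0.000289). Neither gene had overlapping groups, which for Il12b was required by the rule for the largest increases. Il6, a cytokine of fever and the acute phase response, read 9.04 and 7.69 against 10.11 and 9.76 (1.57 ± 0.33, adjusted p = 0.011). Control array 2 lay well below control array 1, and the call of Il6 ended on leaving out deficient array 1 (adjusted p = 0.0887). Tnfsf10, the death ligand TRAIL, was higher as well (1.89 ± 0.32). The 10 higher members include Il10, the gene knocked out in both groups, whose signal cannot be read as intact Il10 here.

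Smaller increases were called for the vasoconstrictor precursor Edn1 (1.41 ± 0.21), for Il18 (1.21 ± 0.19), for Il15, which sustains NK cells (0.94 ± 0.12), for the interleukin 1 antagonist Il1rn (0.69 ± 0.16) and for the B cell factor Tnfsf13b (0.42 ± 0.11). Ebi3, the IL-27 subunit that can pair with p28, was lower (-0.71 ± 0.14), as were Lif and Inhba (both -0.31 ± 0.08). The 2 most abundant members not called were Il1b, at 12.50 and 12.13 against 12.03 and 11.65 (-0.48 ± 0.26, adjusted p = 0.295), and Tgfb1 (-0.05 ± 0.10). Tnf, which was singled out after its values were seen, read 12.47 and 12.37 against 12.50 and 12.54, a difference of 0.10 ± 0.11 that was not called. The probe sets of Il12b differed in size, 2.10 and 1.41 log2, but not in direction. Of the interleukin 1 genes, Il1a was called higher and Il1b was not called. The 3 lower calls became 1 in each of the 4 fits with an array left out. Without stimulus 3 of the 26 were higher and 2 lower, and with LPS and IL-10 12 were higher and 0 lower.

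**Figure D2:**
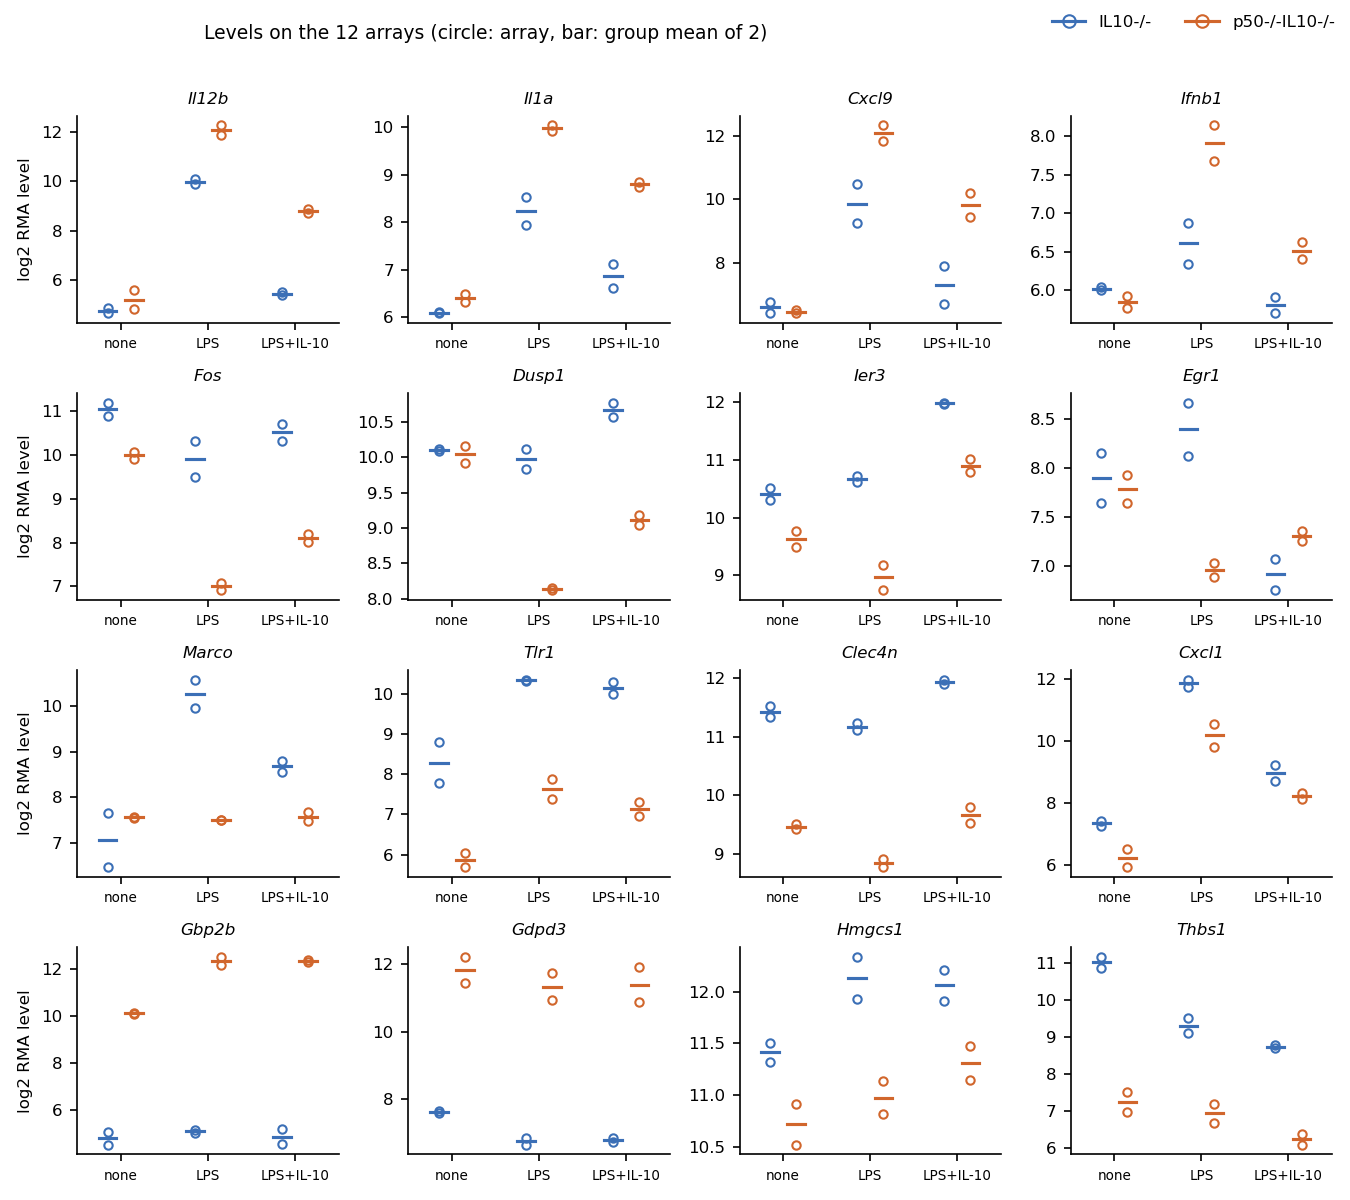
Log2 RMA level (vertical axes, a separate range in each panel, none starting at 0) of 16 genes on the 12 arrays, by stimulus (none, LPS, LPS with IL-10). Circles are arrays, bars the means of 2 arrays, blue IL10-/- and orange p50-/-IL10-/- cells; with LPS the groups of all 16 genes lie apart, for example Il12b at 10.07 and 9.87 against 12.25 and 11.88.

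Chemokines leaned the other way, with 1 of 27 members higher and 7 lower (29.6% called, against 12.4% of all genes). The median was nevertheless -0.00 log2. Cxcl1, which attracts neutrophils, read 11.76 and 11.99 in IL10-/- cells and 9.83 and 10.56 without p50 (-1.68 ± 0.26, adjusted p = 0.00215). Ccl9 read 12.93 and 12.88 against 11.61 and 11.17 (-1.51 ± 0.15), and the platelet basic protein gene Ppbp 6.43 and 6.44 against a dim 4.88 and 5.17 (-1.41 ± 0.14). All 3 were also lower without stimulus. Ccl6 (-1.07 ± 0.08), Pf4 (-0.94 ± 0.16), Ccl3 (-0.83 ± 0.21) and Cxcl16 (-0.71 ± 0.13) followed. The T cell attractant Cxcl9 was the exception, at 10.48 and 9.24 against 12.33 and 11.86 (2.23 ± 0.44, adjusted p = 0.00858), a call that ended in 2 fits with an array left out (highest adjusted p = 0.075). Cxcl10 (0.57 ± 0.36) and Ccl5 (0.22 ± 0.63), the most abundant members not called among the chemokines, had wide errors.

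Promoters of Cxcl1 and Il6 are shown because each holds an exact NF-kB motif while the genes took opposite directions without p50. The motif searched was GGGA, any base, TT, any base and CC, on both strands, in the window from 250 bases before to 50 after a RefSeq start (assembly GRCm38.p6). It occurred in 1.62% of the 9882 measured genes with a promoter in the table (1.37% of 12559 promoters), and in 3 of 21 inflammatory cytokine genes with one (14.3%). Below are the 250 bases before each start, with the motif in capitals.
Cxcl1: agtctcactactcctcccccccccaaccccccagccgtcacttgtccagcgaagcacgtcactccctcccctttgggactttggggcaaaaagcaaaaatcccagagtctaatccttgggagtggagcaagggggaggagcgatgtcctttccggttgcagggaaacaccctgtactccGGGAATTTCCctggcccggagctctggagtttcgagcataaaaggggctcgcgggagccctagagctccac
Il6: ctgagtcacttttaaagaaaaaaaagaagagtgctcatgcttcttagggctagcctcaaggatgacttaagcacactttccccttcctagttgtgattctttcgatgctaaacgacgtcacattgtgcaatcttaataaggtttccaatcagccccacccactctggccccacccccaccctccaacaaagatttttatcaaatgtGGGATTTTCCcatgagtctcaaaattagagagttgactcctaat
The Cxcl1 sequence lies at chr5:90890995-90891244, plus strand, and its motif starts 71 bases before the transcription start. The Il6 sequence lies at chr5:30012864-30013113, plus strand, with the motif starting 44 bases before the start. Among the genes of the 20 largest increases with a promoter, 0 of 16 held this motif, and among those of the 20 largest decreases 0 of 13. At a share of 1.62%, sets of this size would seldom hold it, so these counts tell little. It was in 11 of 552 genes called higher (1.99%) and 18 of 694 called lower (2.59%). Of those at least 2-fold higher 2 of 89 held it (2.25%), and of those at least 2-fold lower 4 of 81 (4.94%). These shares were not tested. A match or its lack describes these letters only.

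Components of the NF-kB system were called in both directions. Of 13 Rel subunits and IkB proteins, 1 was higher and 3 lower (30.8% called, against 12.4% of all genes), with a median of 0.01 log2. Rel, which encodes c-Rel, read 8.37 and 7.85 against 8.93 and 8.50 (0.61 ± 0.17), a call that ended in 2 fits with an array left out (highest adjusted p = 0.274, on leaving out deficient array 1). Nfkb2, the gene of p100 and p52, was lower (-0.53 ± 0.09), as were the kinase complex genes Ikbkg (-0.52 ± 0.10) and Ikbke (-0.48 ± 0.13). The 3 other probe sets of Ikbkg gave 0.12, 0.00 and 0.15 log2 and were not called, so its decrease rests on 1 of 4 probe sets. The abundant inhibitor Nfkbia read 13.44 and 13.48 against 13.45 and 13.49 (0.00 ± 0.07) and Rela gave -0.25 ± 0.07, neither called. Among 15 feedback and TRAF genes, 1 was higher and 3 lower (26.7% called). The ubiquitin-editing enzyme Tnfaip3 (A20) gave 0.61 ± 0.17, the adaptor Sqstm1 -0.93 ± 0.09, the A20-binding protein Tnip1 -0.65 ± 0.09 and the RNase Zc3h12a -0.41 ± 0.08. Sqstm1 read 13.06 and 13.13 against 12.08 and 12.24, without overlap.

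Early genes of the TPL-2 and ERK pathway, the branch that depends on p105, divided into 3 higher and 5 lower of 25. The share called was 32.0%, against 12.4% of all genes, and the median was -0.01 log2. Fos, a component of the AP-1 factor, read 10.33 and 9.50 in IL10-/- cells and 6.91 and 7.08 without p50, 13.2% of the control level (-2.92 ± 0.23, adjusted p = 4.65e-05). The stress response gene Ier3 read 10.62 and 10.73 against 9.19 and 8.74 (-1.71 ± 0.15), and Ier5 9.83 and 9.73 against 8.35 and 8.21 (-1.51 ± 0.11). Egr1, an immediate early zinc finger factor, read 8.66 and 8.12 against 6.89 and 7.03 (-1.43 ± 0.20), and Myc was lower by less (-0.63 ± 0.12). None of these 5 genes had overlapping groups, which for Fos was required by the rule for the largest decreases. Mafk (1.07 ± 0.14), Klf6 (0.81 ± 0.19) and the ERK pathway inhibitor Spry2 (0.79 ± 0.16) were higher. Junb (-0.07 ± 0.15) and Atf3 (0.26 ± 0.11), abundant early genes, were not called. Map3k8, the gene of TPL-2, singled out after its values were seen, read 9.17 and 8.41 against 9.47 and 9.26 (0.58 ± 0.20, adjusted p = 0.0991). The 3 higher calls became 1 on leaving out control array 2 or deficient array 1, and 5 on leaving out control array 1.

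The phosphatases that switch MAP kinases off were lower in part as well. Of 12 phosphatases and mRNA decay factors, 1 was higher and 4 lower (41.7% called, against 12.4% of all genes), with a median of -0.21 log2. Dusp1, which inactivates p38 and JNK, read 10.11 and 9.83 against 8.12 and 8.15 (-1.83 ± 0.12, adjusted p = 1.52e-05). Dusp6, which inactivates ERK, read 7.73 and 7.39 against 5.89 and 5.73 (-1.75 ± 0.13). Both genes were clear of overlap, which for Dusp1 was required by the rule for the largest decreases. Both kept their call with each array left out in turn. The mRNA decay factor Zfp36l1 read 9.99 and 10.09 against 8.47 and 8.40 (-1.60 ± 0.19). Zfp36l2 was lower on the probe set used (-0.71 ± 0.13), but its other probe sets gave 0.02 and -0.02 log2. Dusp16 was the higher member (0.60 ± 0.09), and Zfp36 (tristetraprolin) gave -0.40 ± 0.12 and was not called (adjusted p = 0.0552).

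Interferon genes and their regulators were mostly higher where called, 7 of 20 against 2 lower. The share called was 45.0%, against 12.4% of all genes, and the median was 0.32 log2. Ifnb1, the gene of interferon beta, read 6.87 and 6.34 in IL10-/- cells and 8.14 and 7.68 without p50 (1.30 ± 0.18, adjusted p = 0.00146). Socs1, which inhibits interferon signalling, read 9.05 and 7.45 against 10.68 and 10.37 (2.27 ± 0.38, adjusted p = 0.0034). The groups did not overlap, which for Socs1 was required by the rule for the largest increases, and its IL10-/- arrays lay far apart. The transcription factors Irf8 (0.76 ± 0.17), Irf2 (0.63 ± 0.13), Irf1 (0.43 ± 0.07) and Irf5 (0.41 ± 0.10) and the kinase Tyk2 (0.49 ± 0.11) were higher. The receptor chains Ifnar1 (-0.79 ± 0.10) and Ifngr1 (-0.42 ± 0.08) were lower. The 7 higher calls became 3 on leaving out control array 2 and 3 on leaving out deficient array 1.

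Antiviral interferon-stimulated genes showed a shared displacement with few calls. Of 37 members, 2 were called higher and 0 lower (5.4% called, against 12.4% of all genes). However, 35 had arrays that did not overlap, all higher without p50 (21.6% of all genes did not overlap in that direction). The median was 0.80 log2. Trim21, an antibody receptor of the cytosol, read 10.75 and 10.38 against 11.71 and 11.64 (1.12 ± 0.15, adjusted p = 0.000964). Ch25h, which makes an antiviral oxysterol, read 10.93 and 9.94 against 12.03 and 11.55 (1.36 ± 0.38), a call that ended in 3 fits with an array left out. Rsad2 (viperin) and Ifitm3, the most abundant members not called, gave 0.32 ± 0.45 and 0.46 ± 0.20. The mean of the list was 11.16 and 10.46 on the IL10-/- arrays and 11.71 and 11.49 without p50. The IL10-/- array numbered 2 read lower than array 1 for this list at all 3 stimuli, and the median was 0.37 on leaving out control array 2 and 1.04 on leaving out control array 1. With a replicate block 11 members were called, and on leaving out control array 1 there were 10. Without stimulus limma called 0, with 25 higher and 0 lower at an unadjusted p under 0.05 (median 0.71), and with LPS and IL-10 29 were higher and 0 lower (median 1.53).

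Related genes of the interferon response were displaced in the same direction. Guanylate-binding proteins and immunity-related GTPases attack vacuoles of intracellular microbes. Of 10 measured, 4 were called higher (40.0%, against 12.4% of all genes called), and the median was 0.89 log2. All 10 were clear of overlap and higher (21.6% of all genes did not overlap in that direction). Besides Gbp2b, Gbp3 and Gbp7, the fourth was Gbp6, at 9.07 and 7.72 against 10.54 and 10.69 (2.22 ± 0.55). Its call ended on leaving out control array 2 (adjusted p = 0.16), and the count of 4 became 2 in 3 of the 4 fits with an array left out. Gbp2 (0.19 ± 0.31) and Ifi47 (0.65 ± 0.48) were not called. Among 15 MHC class I loading and immunoproteasome genes, 3 were called higher (H2-M3, Tapbpl and Erap1, at 0.76, 0.58 and 0.57 log2), 14 did not overlap, and the median was 0.43. That count became 0 on leaving out control array 2 or deficient array 1.

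Several of the 20 largest increases belonged to interferon-inducible families outside these lists. The tripartite motif genes Trim34a, Trim12a and Trim30d are near neighbours on chromosome 7, at 1 and 2 steps in the gene order, and probes of such paralogs may share signal. Trim34a read 7.68 and 7.20 against 9.19 and 9.46 (1.88 ± 0.28), Trim30d 8.02 and 6.77 against 9.24 and 9.43 (1.93 ± 0.34), and Trim12a a dim 4.36 and 4.35 against 6.51 and 7.72 (2.76 ± 0.47). Another probe set of Trim34a gave 0.20 log2 and was not called. Plscr1, an interferon-inducible phospholipid scramblase, read 7.21 and 7.65 against 9.29 and 9.45 (1.94 ± 0.14), with 2.08 on its other probe set.

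The motif of the interferon-stimulated response element, searched as GAAA, any 2 bases and GAAA on both strands in the same window, was in 3.85% of the measured genes with a promoter (3.14% of promoters). It was in 12 of the 89 genes called at least 2-fold higher (13.5%) and in 3 of the 81 at least 2-fold lower (3.7%). Of the 20 largest increases with a promoter, 5 of 16 held it (31.2%), namely Gbp2b, Socs1, Trim12a, Trim30d and Trim34a, and of the largest decreases 2 of 13 (15.4%), Slfn8 and Vegfa. In the lists it was in 7 of 8 guanylate-binding and immunity-related GTPase genes (87.5%) and 11 of 26 antiviral genes (42.3%). The sequences of Gbp2b, the largest increase, of Socs1, whose matches overlap, and of Trim30d are printed to show where the motif lies, again as the 250 bases before the start with matches in capitals.
Gbp2b: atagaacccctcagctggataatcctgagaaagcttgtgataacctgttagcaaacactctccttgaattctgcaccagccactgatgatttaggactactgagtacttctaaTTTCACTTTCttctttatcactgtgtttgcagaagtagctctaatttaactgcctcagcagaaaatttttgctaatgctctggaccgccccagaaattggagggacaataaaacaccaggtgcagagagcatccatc
Socs1: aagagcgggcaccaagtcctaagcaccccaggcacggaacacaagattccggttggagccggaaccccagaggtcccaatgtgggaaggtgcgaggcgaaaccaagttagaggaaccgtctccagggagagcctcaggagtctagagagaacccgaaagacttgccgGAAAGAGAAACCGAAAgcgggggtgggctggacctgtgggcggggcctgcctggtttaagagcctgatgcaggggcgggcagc
Trim30d: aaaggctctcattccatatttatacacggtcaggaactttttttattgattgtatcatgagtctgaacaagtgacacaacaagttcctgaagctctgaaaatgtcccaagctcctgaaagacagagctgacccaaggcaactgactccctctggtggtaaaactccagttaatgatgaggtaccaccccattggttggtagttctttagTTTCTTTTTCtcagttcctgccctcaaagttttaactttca
They come from RefSeq GRCm38.p6 at chr3:142594597-142594846, plus strand for Gbp2b, chr16:10785537-10785786, minus strand for Socs1 and chr7:104507850-104508099, minus strand for Trim30d. In Gbp2b and Trim30d the capitals are the reverse complement of the motif, which lies on the other strand, 137 and 41 bases before the start, and in Socs1 the overlapping matches begin 83 and 77 bases before it. These shares describe sequence and were not tested against one another.

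Receptors that sense microbes moved in both directions. Of 18 Toll-like receptor and LPS co-receptor genes, 5 were higher and 3 lower (44.4% called, against 12.4% of all genes). Tlr1, which pairs with TLR2 to detect bacterial lipopeptides, read 10.36 and 10.32 in IL10-/- cells and 7.88 and 7.38 without p50 (-2.70 ± 0.28, adjusted p = 0.000237). Its relative Tlr6 was lower by less (-0.64 ± 0.12), and Tlr2 itself gave -0.12 ± 0.08 and was not called. The nucleic acid sensors Tlr3 (1.06 ± 0.23), Aim2 (0.86 ± 0.12) and Tlr7 (0.56 ± 0.12) were higher. The 5 higher calls became 2 on leaving out control array 2 and 1 on leaving out deficient array 1. Among 25 C-type lectins and scavenger receptors, 4 were higher and 7 lower (44.0% called). Marco, a scavenger receptor for bacteria and particles, read 9.96 and 10.58 against 7.50 and 7.50 (-2.77 ± 0.31, adjusted p = 0.000352).

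Clec4n (Dectin-2), a receptor for fungal mannans, read 11.23 and 11.11 against 8.92 and 8.77 (-2.33 ± 0.11, adjusted p = 1.81e-06), and its other probe set gave -2.31. These groups were far apart relative to the spread of their arrays. Clec4a2 (-0.89 ± 0.10), the scavenger receptor Msr1 (-0.67 ± 0.10) and the mannose receptor Mrc1 (-0.65 ± 0.17) were lower too. The collectin Colec12 was higher (1.71 ± 0.17, from a level close to dim), as was Mertk, the receptor for apoptotic cells, at 8.87 and 8.46 against 10.17 and 9.74 (1.29 ± 0.19). Dectin-1 (Clec7a) was higher (0.67 ± 0.10) while Clec4e (Mincle) was not called (0.16 ± 0.08). Of 16 chemokine, formyl peptide and other surface receptors, 1 was higher and 4 lower (31.2% called, against 12.4% of all genes). The lower ones were led by the CXCL12 receptor Cxcr4 at 10.51 and 10.76 against 8.90 and 9.27 (-1.55 ± 0.19), with Ccr1 (-1.15 ± 0.31), Cx3cr1 (-1.13 ± 0.20) and P2ry6 (-0.50 ± 0.08). The atypical receptor Ccrl2 was the higher one (0.50 ± 0.11). The 7 lower lectins and scavenger receptors became 4 in 3 of the 4 fits with an array left out.

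Of 21 genes for co-stimulation and adhesion, which serve contact with T cells, 7 were higher and 2 lower (42.9% called, against 12.4% of all genes). Itgax, the integrin chain CD11c, read 7.54 and 8.40 in IL10-/- cells and 10.92 and 10.45 without p50, 6.56-fold higher (2.71 ± 0.35, adjusted p = 0.000773), and it was higher without stimulus too (2.54 log2). Itga4 (0.97 ± 0.22), Slamf7 (0.91 ± 0.18), Cd40 (0.84 ± 0.16) and the inhibitory ligand Cd274 (0.74 ± 0.19) were also higher. Cd86, a ligand of CD28, was lower (-0.72 ± 0.17), as was Cd83 (-0.52 ± 0.15). The 7 higher calls became 4 on leaving out control array 2 and 2 on leaving out deficient array 1. CD11c also marks dendritic cells. Of 10 dendritic cell markers, 2 were higher (Itgax and Tcf4) and 0 lower, the median was 0.08 log2, and Zbtb46, Xcr1 and Ccr7 were dim on all 4 arrays. Fscn1, an actin-bundling protein of mature dendritic cells, gave -0.07 on the probe set used, but another of its probe sets fell from a group mean of 7.55 to a dim 5.18 (-2.37 log2). Among 10 MHC class II presentation genes, the transactivator Ciita was higher (0.90 ± 0.13) and the thiol reductase Ifi30 lower (-0.31 ± 0.08).

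**Figure D3:**
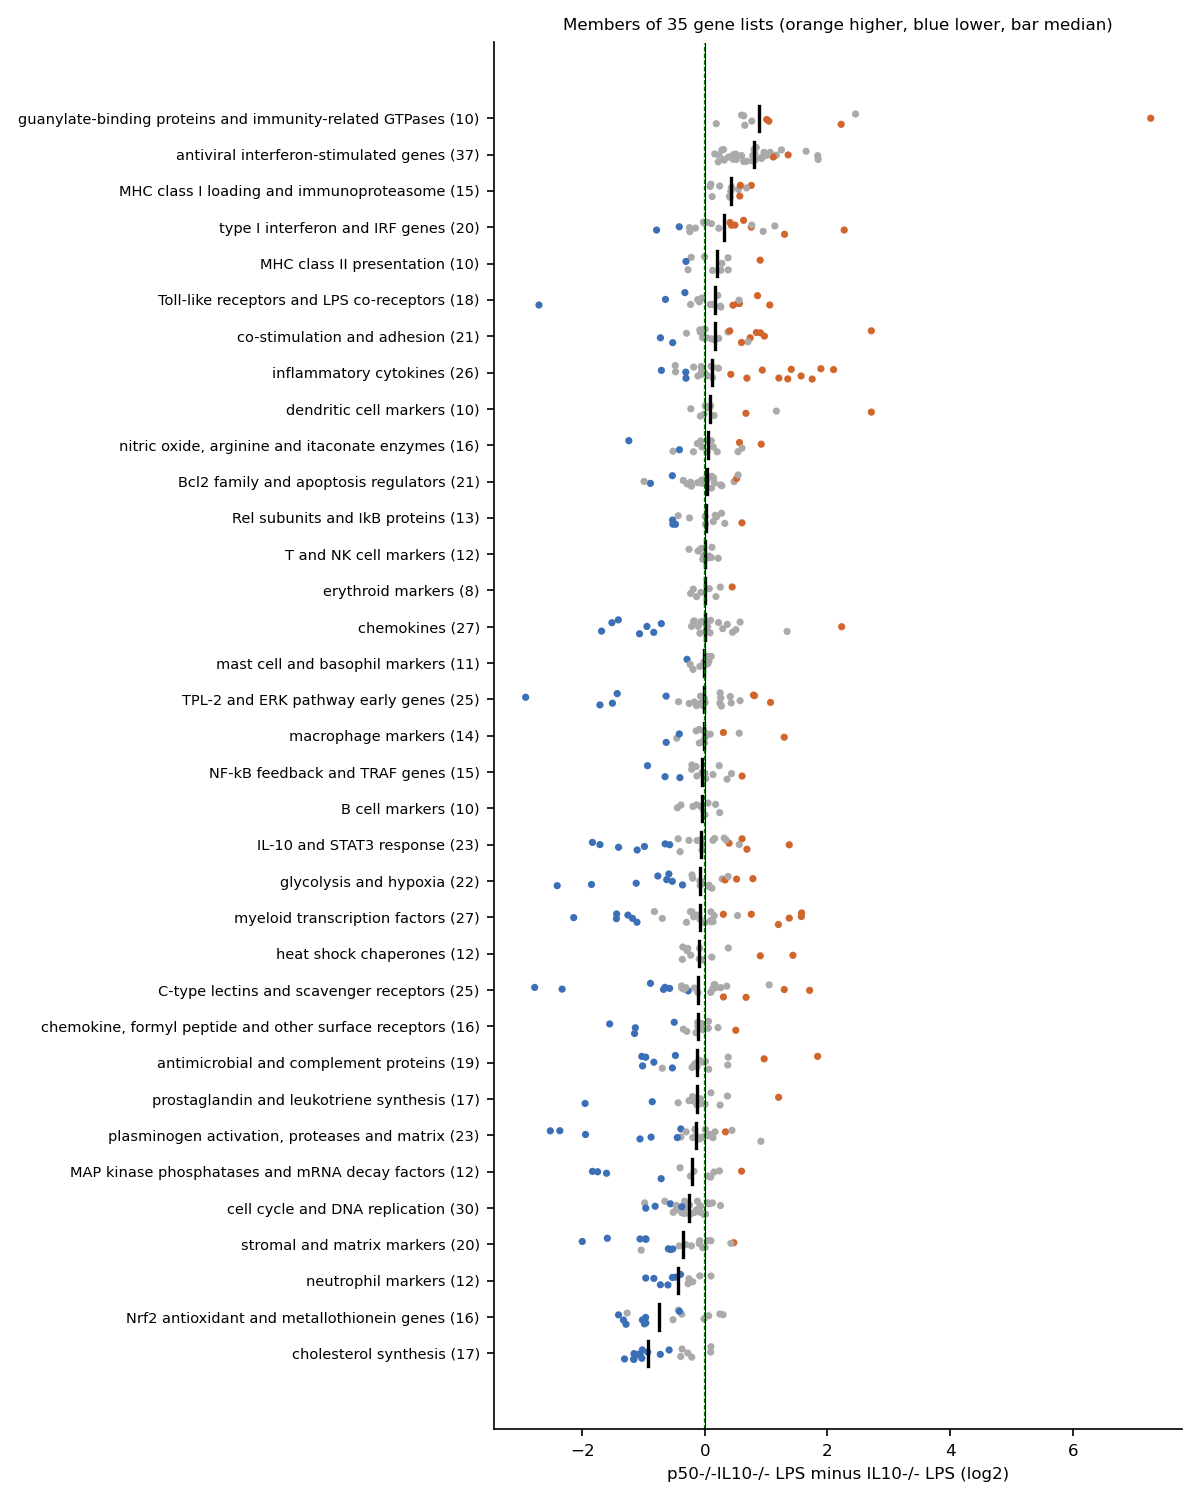
Log2 difference with LPS (p50-/-IL10-/- minus IL10-/-, horizontal axis) of each measured member of 35 gene lists (rows, number measured in brackets, ordered by median). Orange points were called higher, blue lower and grey not called, black bars are list medians and the dashed line the median of all genes (-0.02); the medians run from -0.93 for cholesterol synthesis to 0.89 for guanylate-binding proteins and immunity-related GTPases.

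Genes of cholesterol synthesis were lower as a group. Of 17 measured members, 11 were lower and 0 higher (64.7% called, against 12.4% of all genes). Arrays of 15 did not overlap (26.9% of all genes did not overlap in that direction), and the median was -0.93 log2. Hmgcs1, which makes HMG-CoA for the pathway, read 11.93 and 12.34 in IL10-/- cells and 11.13 and 10.82 without p50 (-1.16 ± 0.19, adjusted p = 0.00302). The lanosterol demethylase Cyp51 read 9.14 and 9.53 against 8.33 and 7.71 (-1.31 ± 0.25), Idi1 gave -1.16 ± 0.22 and the squalene synthase Fdft1 -1.15 ± 0.20. Of the 3 other probe sets of Fdft1, 2 gave 0.09 and 0.03 log2 and were not called. Ebp (0.10 ± 0.10) and the regulator Srebf2 (-0.39 ± 0.13) were not called. Without stimulus limma called 0 members, with 4 lower at an unadjusted p under 0.05 (median -0.16), and 12 were lower with LPS and IL-10 (median -0.72). The count of 11 became 5 on leaving out control array 2 and 6 on leaving out deficient array 2.

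Nrf2 antioxidant and metallothionein genes, which buffer oxidants and metals, were lower in 8 of 16 cases and higher in 0. Of all genes, 6.72% were called lower and 5.66% higher. The median of the list was -0.74 log2. The subunits of the enzyme that starts glutathione synthesis were lower: Gclm read 10.38 and 10.58 against 9.06 and 9.33 (-1.29 ± 0.11, adjusted p = 6.25e-05) and Gclc 9.54 and 10.11 against 8.43 and 8.57 (-1.33 ± 0.17). Neither overlapped. Heme oxygenase Hmox1 gave -1.41 ± 0.31, sulfiredoxin Srxn1 -1.02 ± 0.23 and metallothionein Mt1 -0.97 ± 0.25. One of the other probe sets of Srxn1 gave -0.16 and was not called. Ferritin Fth1, at 14.20 and 14.17 against 14.18 and 14.17, was not called. The count of 8 became 3 on leaving out control array 2, and 4 and 5 when deficient arrays 1 and 2 were left out in turn. The IL10-/- arrays numbered 2 read higher than those numbered 1 for this list at all 3 stimuli.

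**Figure D4:**
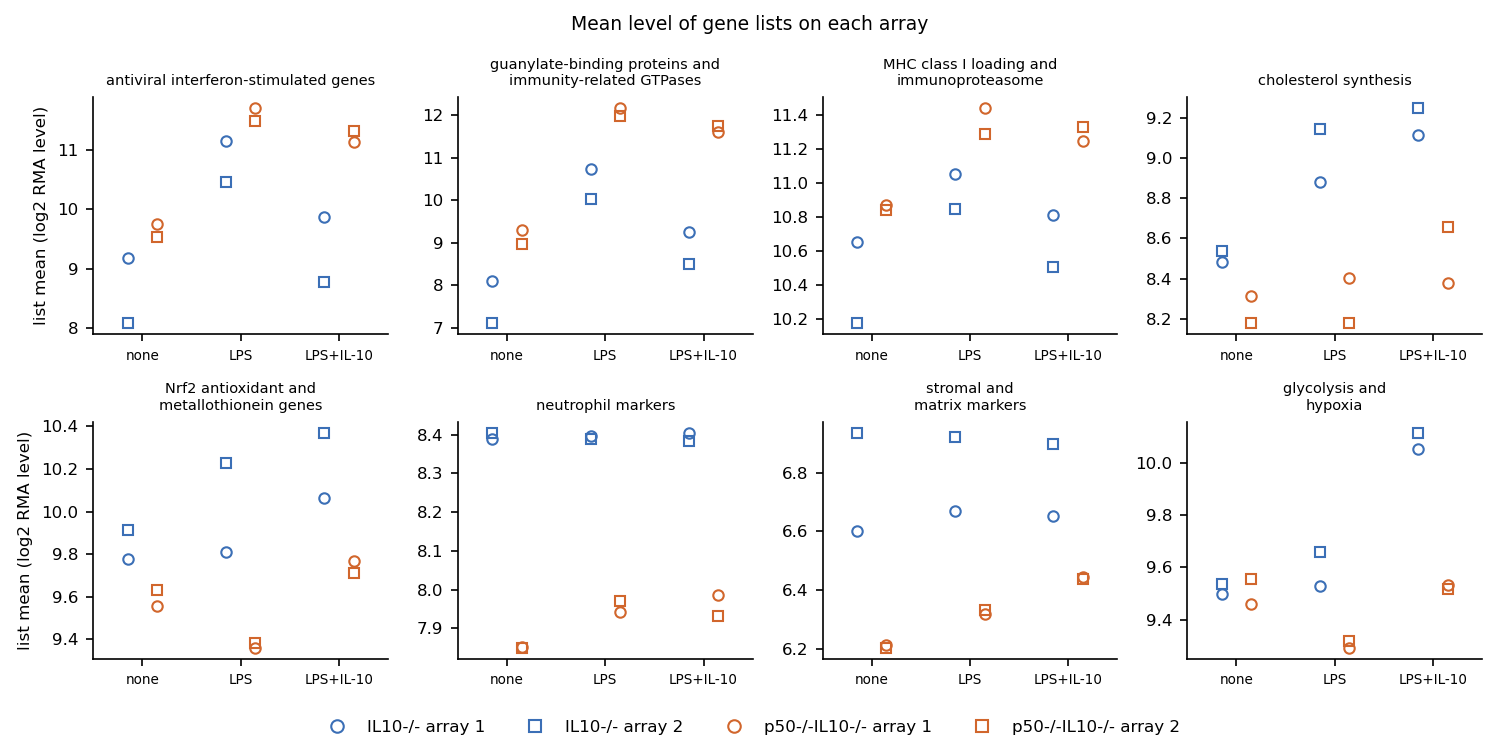
Mean log2 RMA level of the measured members of 8 gene lists (vertical axes, a separate range in each panel, none starting at 0) on each of the 12 arrays, by stimulus. Circles are arrays numbered 1 and squares arrays numbered 2, blue IL10-/- and orange p50-/-IL10-/-; antiviral genes read 11.16 and 10.46 in IL10-/- cells with LPS against 11.71 and 11.49 without p50.

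Glycolysis and hypoxia genes were lower in 8 of 22 cases and higher in 3, against 6.72% lower and 5.66% higher among all genes. Eno2, an enolase isoform, read 7.29 and 7.81 against a dim 5.10 and 5.18 (-2.41 ± 0.18, adjusted p = 2.8e-05). The angiogenic factor Vegfa read 8.21 and 8.28 against 6.54 and 6.25 (-1.85 ± 0.15), but its other probe set gave -0.31 and was not called. The phosphofructokinase Pfkl was lower (-1.12 ± 0.08) and the hexokinase Hk2 higher (0.78 ± 0.10), so enzymes of the pathway's early steps differed in direction. The other higher calls were the hexokinase Hk1 and the phosphofructokinase Pfkp. The abundant enzymes Aldoa (-0.08 ± 0.09) and Pgk1 (-0.04 ± 0.12) were not called. In arginine metabolism and nitric oxide synthesis, 2 of 16 genes were higher and 2 lower, against 5.66% and 6.72% of all genes. The arginine transporter Slc7a2 gave 0.92 ± 0.14, Gch1 0.57 ± 0.09, ornithine decarboxylase Odc1 -1.24 ± 0.15 and the oxidase subunit Ncf4 -0.41 ± 0.10. Of 12 heat shock chaperones, Hspa1a (1.44 ± 0.16) and Hspa1b (0.90 ± 0.25) were higher, and these near-identical genes may share signal. Calls made up 16.7% of the chaperones, near the 12.4% of all genes.

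In prostaglandin and leukotriene synthesis 1 of 17 genes was higher and 2 lower (17.6% called, near the 12.4% of all genes). Ptger2, a receptor for prostaglandin E2 counted in this list, read 8.24 and 8.36 against 5.97 and 6.73 (-1.95 ± 0.21, adjusted p = 0.000273). The terminal synthase Ptges read 8.70 and 8.35 against 9.91 and 9.55 (1.20 ± 0.18). Groups of both genes were separate, which for Ptger2 was required by the rule for the largest decreases. Cyclooxygenase 2 (Ptgs2) was lower on the probe set used (-0.86 ± 0.18), while its other probe set gave -0.04 and was not called. Among genes of the IL-10 and STAT3 response, 4 of 23 were higher and 7 lower (47.8% called). Dusp1, Ier3 and Hmox1, given above, led the lower ones, with Ddit4 (-1.10 ± 0.28) and the zinc transporter Slc39a14 (-0.98 ± 0.14), and Nfil3 led the higher ones at 7.28 and 7.27 against 8.50 and 8.80 (1.38 ± 0.14, adjusted p = 0.000227). The 7 lower calls became 3 and 4 when deficient arrays 1 and 2 were left out in turn, and the 4 higher ones 1 on leaving out deficient array 1 or control array 2, and 2 on leaving out deficient array 2.

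Myeloid transcription factors were divided, 6 of 27 higher and 6 lower (44.4% called, against 12.4% of all genes). Cebpd, an acute phase regulator, read 11.53 and 11.55 in IL10-/- cells and 9.55 and 9.25 without p50 (-2.14 ± 0.12, adjusted p = 7.14e-06), with -0.43 on its other probe set. Gfi1, a repressor in granulocyte and lymphoid development, read 7.23 and 7.88 against 9.32 and 8.95 (1.58 ± 0.19). Batf2 was higher (1.57 ± 0.34), a call that ended in 2 fits with an array left out, and the inhibitor of differentiation Id1 lower (-1.44 ± 0.25). The lineage factors Spi1 (-0.08 ± 0.09) and Cebpb (-0.30 ± 0.12) were not called, though another probe set of Cebpb was lower (-0.39). Of 21 Bcl2 family and apoptosis genes, 1 was higher (Birc2, 0.52 ± 0.10) and 2 lower, the survival gene Bcl2l1 (-0.89 ± 0.10) and Gadd45b (-0.53 ± 0.13), so that 14.3% were called against 12.4% of all genes. The other probe sets of Bcl2l1 gave -0.50, which was called, and -0.11 and -0.01, which were not, and 1 of Gadd45b gave 0.08 and was not called. Bcl2l11, which encodes the death-promoting protein BIM, was not called on the brightest probe set (0.48), but its 4 others were all higher (0.72, 0.96, 0.81 and 1.56 log2), so the count of 1 higher gene depends on the choice of probe set. Cell cycle genes were lower in 4 of 30 cases and higher in 0 (median -0.26), a called share of 13.3% that is near the 12.4% of all genes. Mcm7 had the lowest value (-0.96 ± 0.14), with -0.70, which was called, and -0.16 and -0.34, which were not, on its other probe sets, and the count became 1 in 3 of the 4 fits with an array left out.

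Genes of the matrix and its proteases were mostly lower where called, 7 of 23 against 1 higher (34.8% called, against 12.4% of all genes). Thbs1 (thrombospondin 1) read 9.50 and 9.10 in IL10-/- cells and 7.18 and 6.68 without p50 (-2.36 ± 0.22, adjusted p = 0.0001), the matricellular gene Ccn2 7.93 and 7.83 against a dim 5.18 and 5.54 (-2.52 ± 0.21), and the protease inhibitor Timp1 8.36 and 8.71 against 6.39 and 6.79 (-1.95 ± 0.19). All 3 were lower without stimulus as well (-3.77, -2.90 and -1.81 log2). Markers of stromal cells, which share Fn1 with that list, moved with them: 8 of 20 were lower and 1 higher (45.0% called), with a median of -0.36. The proteoglycan Dcn read 7.38 and 8.29 against 5.92 and 5.75 (-2.00 ± 0.35), Bgn gave -1.59 ± 0.27, and Cdh11, a cadherin of mesenchymal cells, a dim 4.59 and 4.41 without p50 (-2.04 ± 0.38). The summed signal of the stromal markers was 11.36 and 11.81 log2 in IL10-/- cells and at most 11.07 without p50, and Lum, Thy1 and Pecam1 were dim on all 4 arrays. Fewer cells of a type and less RNA per cell cannot be told apart in such bulk samples, and the part of stromal cells in the matrix genes was not tested. The 8 lower markers became 4 on leaving out control array 2 or deficient array 1.

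Antimicrobial and complement proteins were lower in 6 of 19 cases and higher in 2 (42.1% called, against 12.4% of all genes). Complement factor B (Cfb) was higher (1.84 ± 0.45), a call that ended in 3 fits with an array left out, and so was haptoglobin (Hp, 0.97 ± 0.17). The chitinase-like gene Chil3 (-1.03 ± 0.10), lipocalin Lcn2 (-1.02 ± 0.13), S100a9 (-0.96 ± 0.08) and S100a8 (-0.83 ± 0.09) were lower. Neutrophil markers share the lower genes Camp, Ltf, S100a8 and S100a9 with this group, so these lists are not separate observations. Of 12 neutrophil markers, 7 were lower and 0 higher (58.3% called), with a median of -0.44, and 6 were lower without stimulus. S100a9 read 10.85 and 10.98 against 9.95 and 9.95, and the granule gene Ngp 10.34 and 10.54 against 9.70 and 9.73 (-0.72 ± 0.08). The summed signal of the list was 12.98 and 13.07 in IL10-/- cells and 12.39 and 12.43 without p50, with 0 members dim on all 4 arrays, and the part of neutrophils or their precursors in these calls was not tested. Among the macrophage markers, Mertk and Cd68 (0.30 ± 0.08) were higher and Adgre1 (F4/80, -0.63 ± 0.10) and Fcgr3 (-0.42 ± 0.10) lower (28.6% called).

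Markers of lymphoid and other lineages gave few calls. Of 10 B cell and 12 T and NK cell markers limma called 0, with 1 in each list at an unadjusted p under 0.05. Of 8 erythroid and 11 mast cell and basophil markers it called 1 each, Car2 (0.45 ± 0.11) and Mcpt8 (-0.29 ± 0.08). Their shares of 12.5% and 9.1% were near the 12.4% of all genes. Both of these calls ended in all 4 fits with an array left out.

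Inducible genes were then marked from the 8 arrays that the comparison does not use, as those at least 2-fold higher or lower with LPS and IL-10 than without stimulus, averaged over the genotypes (288 raised, 2.32% of all genes, and 257 lowered, 2.07%). Of the 288 raised genes, 80 were higher (27.8%) and 35 lower (12.2%) without p50 in LPS-treated cells, with a median of 0.25 log2. Of the 257 lowered genes, 22 were higher (8.56%) and 43 lower (16.7%), with a median of -0.11. The 11848 other genes had 600 higher (5.06%) and 755 lower (6.37%), with a median of -0.02. The shares called in both directions were larger among raised genes than among the others, a difference that was not tested. As the mark averages the genotypes, a gene can enter the raised class through p50-/-IL10-/- cells alone. Of the genes higher with LPS, 63% were also higher with LPS and IL-10. The larger share of higher calls among raised genes is thus partly set by the rule. Gbp2b, Med21, Socs1, Cxcl9 and Il12b were among the raised genes that were higher, and Tlr1, Cebpd, Timp1, Ier3 and Cxcl1 among the raised genes that were lower. Fos, Thbs1, Vegfa, Dusp6 and Cxcr4 were in the lowered class and were lower without p50 in LPS-treated cells. Mertk was in the lowered class but higher without p50.

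The genotype difference without stimulus was smaller in extent, with 318 genes called (2.57%), 156 higher (1.26%) and 162 lower (1.31%). It used other arrays but the same pooled estimate of spread. Of the 702 genes higher with LPS, 112 were also higher without stimulus (16% of the former and 71.8% of the latter), and of the 833 lower genes 111 were also lower (13.3% and 68.5%). With LPS and IL-10, 2231 genes were called (18%), 940 higher (7.58%) and 1291 lower (10.4%), and the overlap was 442 higher genes (63% of those called with LPS alone and 47% of those called with both) and 539 lower genes (64.7% and 41.8%). Among the 114 genes at least 2-fold higher, 29 were called higher without stimulus and 101 with LPS and IL-10, and among the 105 at least 2-fold lower these numbers were 37 and 95. Tmem87a, Gdpd3, Qpct and Itgax were called higher both with and without LPS. For Thbs1 the difference without stimulus was -3.77 and that with LPS -2.36 log2.

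**Figure D5:**
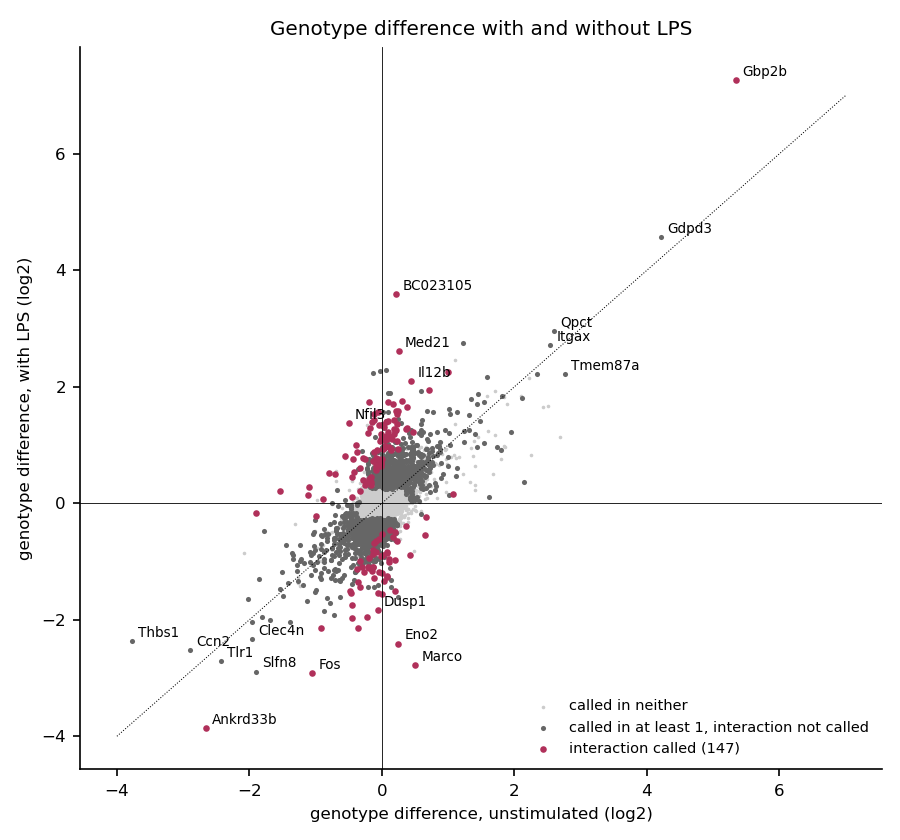
Genotype difference (p50-/-IL10-/- minus IL10-/-, log2) without stimulus (horizontal axis) and with LPS (vertical axis) for 12393 genes, with equality as a dotted line. Red points are the 147 genes whose difference between the axes was called, dark points other genes called in at least 1 of the comparisons; Marco stands at 0.51 and -2.77 and Gdpd3 at 4.22 and 4.58.

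Whether a difference with LPS differed from that without stimulus was tested by the interaction term, which shares the LPS arrays. It called 147 genes (1.19%), 91 higher (0.734%) and 56 lower (0.452%). Of the 40 genes with the largest differences, 15 had a called interaction, 6 of the increases and 9 of the decreases. These 40 were picked on the difference with LPS, which is part of this term, so that number is not independent of the choice. Marco had group means of 7.05 without stimulus and 10.27 with LPS in IL10-/- cells, against 7.56 and 7.50 without p50, an interaction of -3.28 ± 0.44 (adjusted p = 0.00888). The genotype differences of Dusp1 (-1.77 ± 0.17), Eno2 (-2.65 ± 0.25), Tor4a (-1.79 ± 0.19), Ier5 (-1.70 ± 0.15), Fos (-1.87 ± 0.32) and Cxcr4 (-1.56 ± 0.26) likewise shifted down from no stimulus to LPS. Those of Med21 (2.35 ± 0.23), Nfil3 (1.87 ± 0.20), Il12b (1.66 ± 0.30), Il1a (1.45 ± 0.27), Ifnb1 (1.48 ± 0.26) and Il10 (1.39 ± 0.22) shifted up. A shift does not say in which direction a gene differed without stimulus. For Clec4n (-0.36), Tlr1 (-0.27), Gdpd3 (0.36) and Itgax (0.18) the interaction was not called. The number of called interactions ranged from 32, without array 1 of unstimulated p50-/-IL10-/- cells, to 255, on leaving out control array 1.

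Adding IL-10 altered the genotype difference of few genes by the corresponding test. It called 17 genes (0.137%), 12 higher (0.0968%) and 5 lower (0.0403%), and 1452 at an unadjusted p under 0.05. Egr1, lower without p50 in LPS-treated cells, gave 0.39 log2 with LPS and IL-10, a shift of 1.82 ± 0.29 (adjusted p = 0.0484). Ptgs2 shifted from -0.86 to 1.22 (2.08 ± 0.26) and Il15 from 0.94 to 2.86 (1.92 ± 0.17), while Ankrd33b shifted from -3.85 to -2.51 (1.34 ± 0.20). The difference of Il12b was 2.10 for LPS alone and 3.35 after IL-10 was added, and that of Fos -2.92 and -2.43, and neither shift was called.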

How the data were processed

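The deposited values are log2 levels of 22690 Affymetrix probe sets in a single table. RMA and limma are named in the submitters' processing notes, without versions or roles. RMA equalises array distributions (array medians 6.92 to 6.96), so a change in total RNA is not visible, and it compresses differences of dim genes. Options and genome build: not given in the sources used here.

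After removal of 64 controls, 20380 probe sets carried 1 gene symbol, 691 several and 1555 none, and 20351 identifiers matched the mouse gene table. The probe set with the highest mean stood for each of 12393 genes, of which 4956 had several.

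Group means were fitted over all 12 arrays with limma 3.58.1 in R 4.3.3 (6 residual degrees of freedom, prior 4.47, two-sided, Benjamini-Hochberg over all genes, called at adjusted p under 0.05, median SE 0.0998). With 2 arrays in each group, 0.333 is the smallest two-sided p of an exact permutation test. The number of arrays limits the precision. The fit was tested on simulated data.

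Named genes were, among called genes without overlap, the 20 that increased most and the 20 that decreased most, up to 4 called members and the 2 most abundant members not called in each of 35 lists (630 of 730 entries measured), Il10, and called genes among 25 measured on each side of Nfkb1. Further list members were chosen after their values were seen, as were Tnf and Map3k8, and other probe sets were not examined for these. The promoters printed were chosen in the same way. Comparisons, lists and rules were chosen with earlier results of these data known, so list counts are descriptions. Alternatives were fits on fewer groups, centring, dim genes left out, the mean of probe sets, replicate blocks and leaving out arrays. Array numbers mark no shared culture in the labels. Deviations of same-numbered LPS arrays correlated at 0.298.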

Additional observations from a re-analysis of the deposited data

Results flagged for a closer look

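The genotype difference with LPS differed from that without stimulus for 28 of the named genes by the limma interaction test, and the difference with LPS and IL-10 differed from that with LPS for 5. Named genes were picked largely on their difference with LPS, which is part of both terms, so these numbers are not independent of that choice. Over all genes, 1.19% and 0.137% were called. Among signalling and early genes, the shift from no stimulus to LPS was -1.87 log2 for Fos, -1.77 for Dusp1, -1.70 for Ier5, -1.30 for the ERK phosphatase Dusp6 and -0.74 for the adaptor Sqstm1. Genes of receptors shifted by -3.28 (Marco), -1.73 (Ptger2) and -1.56 (Cxcr4).

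Cytokine genes shifted upward, by 1.66 for Il12b, 1.45 for Il1a, 1.48 for Ifnb1 and 1.39 for Il10. Transcriptional regulators shifted by 2.35 (Med21), 1.87 (Nfil3), 1.33 (Gfi1) and -1.23 (Cebpd). Metabolic genes shifted by -2.65 (Eno2), -0.92 (Pfkl), 1.08 (Hk2) and 1.25 (Bckdhb), and the survival gene Bcl2l1 by -0.91.

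Other shifts were 3.37 for BC023105, 1.93 for Gbp2b, 1.38 for Cenpe, 1.23 for Plscr1, -1.20 for Ankrd33b, -1.53 for Incenp and -1.79 for the torsin-family ATPase Tor4a. Between LPS and LPS with IL-10 the genotype difference shifted by 2.08 for Ptgs2, 1.82 for Egr1, 1.34 for Ankrd33b, 1.22 for the receptor Ccrl2 and 0.88 for the cofactor enzyme Gch1. Each group held 2 arrays, too few to look for single arrays far from the others.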

How the results depend on the processing

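Precision rests on 2 arrays per group and on signal over background, since 2545 genes had a mean over the 12 arrays under the dim level. Counts of calls depended on the spread estimate and on single arrays. With only the groups compared in the fit, calls for p50 loss with LPS fell to 581 (313 higher and 268 lower), of which 568 were among the 1535, LPS interactions to 78 and IL-10 interactions to 10. With 1 array left out, calls for p50 loss with LPS ranged from 671 to 1896 (higher 316 to 685, lower 355 to 1211), those without stimulus from 101 to 244, those with LPS and IL-10 from 987 to 1504, LPS interactions from 32 to 255 and IL-10 interactions from 4 to 43. Without all IL10-/- arrays numbered 2, an alternative chosen after seeing the data, p50 loss with LPS gave 940 calls, 414 of them lower. The mean of probe sets gave 26 IL-10 interactions, and it reversed Ifnar2, from a difference of 0.11 that was not called to -0.35 (adjusted p = 0.0241). With a replicate block, p50 loss with LPS gave 1700 calls (778 higher and 922 lower), and with the block within genotypes 1547. The labels do not tie array numbers to cultures. The pairing was crossed after seeing the data for LPS with IL-10, where deviations of same-numbered arrays correlated at -0.281, and gave 2785 calls. Centring each array turned the balance to 799 higher and 725 lower. Of 135 named calls, 85 were kept under all 12 alternatives and 90 with each of 4 arrays left out.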
